A study of Homo sapiens with 12 samples.

Results

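The 10 keratin genes of PANC-1 pancreatic cancer cells described here comprise 6 of type I (KRT18, KRT19, KRT13, KRT10, KRT15 and KRT17) and 4 of type II (KRT8, KRT7, KRT81 and KRT80). They were chosen by their gene symbols and make up 10 of the 23284 genes listed in each RNA sequencing library. The list holds 55 keratin genes in all, of which 12 passed the filter for testing (FPKM 1 or more in 2 or more libraries), and all 10 chosen genes were among those 12. FPKM is the number of fragments scaled to exon length and to the reads mapped in a library. KRT13 was picked by the study from among the genes with the widest difference between these cell populations, so its difference between populations is given as a description only.

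The study asked which genes accompany resistance to radiation in cells with low proteasome activity. PANC-1 cells, an established line from a human pancreatic ductal carcinoma, were made to express ZsGreen, a green fluorescent protein, fused to the ornithine decarboxylase degron, so that cells with little proteasome activity stay green. Both populations carried this reporter. Degron (++) cells were the brightest cells of a line enriched for ZsGreen by repeated sorting and culture, and degron (-) cells were the infected line before that enrichment, in which green cells were rare.

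The 12 libraries formed 6 groups of 2. Each population was measured unirradiated after 48 h, and after a dose of 4 Gy both 30 h and 48 h. There was no group at 0 Gy and 30 h, so the effect of time after irradiation and that of time in culture cannot be told apart. The starting point of the hours is missing from the labels. The 6 libraries named degron (-) here carry titles with ZsGreen– but short names with d+, and were assigned by their titles. At 0 Gy the mean KRT13 values, 83.22 FPKM in degron (++) and 3.89 in degron (-), equal those the study printed under these names. Nothing in the labels says that the 2 replicates of a group came from separate cultures, so p-values measure the spread between these libraries, which may be technical. The enriched population came from 1 selected line, so features of that line and low proteasome activity cannot be told apart.

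Keratins are the intermediate filament proteins of epithelial cells, and each filament is built from pairs of 1 type I and 1 type II chain. KRT8 and KRT18 form the pair of simple epithelia, and in ducts such as those of the pancreas they are joined by KRT7 and KRT19. KRT13, KRT15, KRT10 and KRT17 are known from stratified epithelia, where KRT13 with its partner KRT4 marks the upper layers of moist, noncornified surfaces, KRT15 the basal layer, KRT10 the differentiating layers of skin, and KRT17 skin appendages and wounds. KRT81 is a hair keratin and KRT80 an epithelial keratin of type II.

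The chosen genes share one of the most alike stretches of the family, the end of the coiled rod by which the chains pair, and that stretch is shown because it allows the types and the near copies to be compared. A run of 30 bases of the coding strand is given 5′ to 3′ from the GENCODE transcripts on GRCh38, with the position on that build. The deposited values were computed on hg19, so no value was placed by these positions. Capitals mark the fourth codon, which is compared below, and the members also differed at other bases.
KRT18: acctaccgcCGCctgctggaagatggcgag, type I, chr12:52952305-52952334, plus strand
KRT19: acctaccgcAGCctgctcgagggacaggaa, type I, chr17:41523782-41523811, minus strand
KRT13: acctaccgcAGCctgctcgagggccaggac, type I, chr17:41502379-41502408, minus strand
KRT10: acctaccgcAGCctgctagaaggagaggga, type I, chr17:40819519-40819548, minus strand
KRT15: acttaccgcAGCctgctcgagggccaggat, type I, chr17:41515477-41515506, minus strand
KRT17: acctaccgcCGCctgctggagggagaggat, type I, chr17:41620664-41620693, minus strand
KRT8: acctacaggAAGctgctggagggcgaggag, type II, chr12:52898684-52898713, minus strand
KRT7: acctaccgcAAGctgctggagggcgaggag, type II, chr12:52245598-52245627, plus strand
KRT81: acctacaggCGCctgctggagggcgaggag, type II, chr12:52287107-52287136, minus strand
KRT80: acctacaggAAGctggtggagggcgaggag, type II, chr12:52172203-52172232, minus strand
KRT4: acctaccgcAAActgctggagggcgaggag, type II, chr12:52807649-52807678, minus strand
KRT86: acctacaggCGCctgctggagggcgaggag, type II, chr12:52306246-52306275, plus strand

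Each stretch lay within 1 coding exon, exon 6 of the type I and exon 7 of the type II transcripts used. The fourth codon was AGC in KRT19, KRT13, KRT10 and KRT15 and a codon beginning with AA in KRT8, KRT7, KRT80 and KRT4. It was CGC in both types elsewhere, in KRT18 and KRT17 and in the hair keratins KRT81 and KRT86. KRT13 differed from KRT19 and from KRT15 at 2 of 30 bases, KRT8 from KRT7 at 2 and KRT8 from KRT18 at 10. KRT81 and KRT86 were identical here. KRT18 is the single type I member on chromosome 12, among the type II genes, while the other 5 type I genes lie on chromosome 17.

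Sequence shared with other genes limits some of the values. Of all 50-base windows of the transcripts of KRT81, 44.6% also occurred in another gene and 38.4% in KRT86. The share was 41.3% for KRT8 and 31.8% for KRT18, whose pseudogenes are many, and 17.4% for KRT17. It was 1.79% for KRT19, 1.03% for KRT13 and 0 for KRT10. The annotated KRT8 and KRT18 genes also overlap at their starts on opposite strands, and KRT86 overlaps KRT81 on the opposite strand and KRT7 on the same strand. The library kit marks strand, but whether strand was used in counting is not given in the sources used here, so how reads were split between such genes is uncertain.

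Summed over genes, degron (++) libraries held 829654 to 916877 FPKM and degron (-) libraries 707273 to 763064. MIR622 by itself made up 28.6% to 30.0% of this in degron (++), compared with 22.5% to 27.1% in degron (-). No counts accompany the values, so intervals for counting error are not given. Judged by the size of 1 fragment among low values, the depth of single libraries ranged from 0.861 to 1.17 times the median library. Markers of pancreatic duct other than keratins were present in both populations, with EPCAM, a surface protein of epithelia, at 176 to 205 FPKM in degron (++) and 29.9 to 52.8 in degron (-). SOX9, a ductal transcription factor, was lower in degron (++), at 17.4 to 22.9 against 35.6 to 43.9. Of the squamous markers, KRT5, KRT14, TP63 and DSG3 stayed below 0.4 FPKM in all libraries, and IVL reached 2.19 to 4.64 in degron (++) and 0.133 to 1.67 in degron (-). Summed markers of acinar cells, leukocytes and endothelium were at most 0.262, 0.11 and 0.556 FPKM. The fibroblast list was below 1 FPKM in degron (++) and 36.6 to 52.5 in degron (-), nearly all of it COL1A1, while DCN and COL1A2 were listed at 0 throughout.

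Together the 10 keratins held 0.865% to 0.915% of all FPKM in degron (++) and 0.581% to 0.684% in degron (-). In both populations KRT8 and KRT18 were the most abundant, each 33.5% to 35.5% of the keratin FPKM in degron (++) and 38.0% to 41.2% in degron (-). In degron (++) they were followed by KRT7, KRT19, then KRT81 and KRT13, and then KRT80, KRT10, KRT15 and KRT17. In degron (-) the order was KRT8 and KRT18, KRT19, KRT7, KRT80 and KRT81, KRT10, KRT15, KRT13 and KRT17. By the ranges of their FPKM, KRT8 could not be separated from KRT18 in either population, nor KRT81 from KRT13 in degron (++). Within each degron (-) library KRT8 was above KRT18. Their shares there did not overlap, at 39.7% to 41.2% for KRT8 and 38.0% to 39.1% for KRT18. In degron (-) the FPKM ranges of KRT80 and KRT81, of KRT81 and KRT10, of KRT10 and KRT13, and of KRT15 and KRT13 overlapped. KRT7 and KRT19 changed places: KRT7 was above KRT19 in 6 of 6 degron (++) libraries and below it in 6 of 6 degron (-) libraries.

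**Figure D1:**
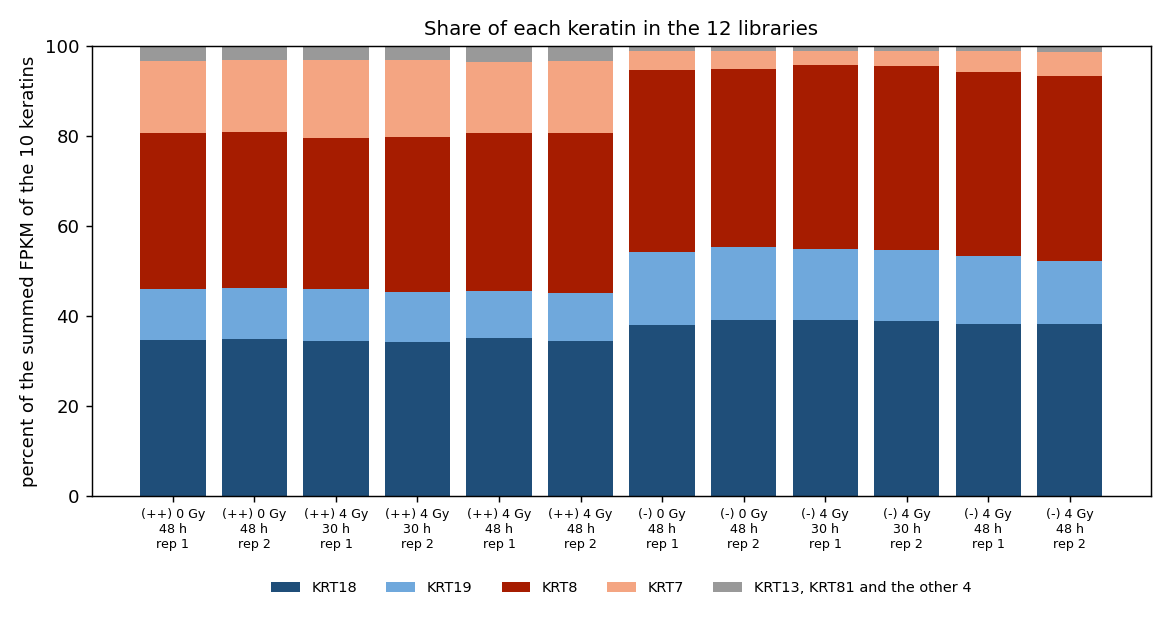
Each bar is 1 library and is divided by the percent of the summed FPKM of the 10 keratins that each gene held. KRT7 took 15.8% to 17.5% in degron (++) and 3.14% to 5.30% in degron (-), and KRT19 took 10.5% to 11.6% and 14.0% to 16.3%.

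KRT8 and KRT18, the type II and type I chains of simple epithelia, were both higher in degron (++) than in degron (-). KRT18 measured 2493 and 2668 FPKM in degron (++) at 0 Gy, 2822 and 2640.4 at 4 Gy and 30 h, and 2758 and 2889 at 4 Gy and 48 h. In degron (-) it measured 1824 and 1719.7, 1658 and 1707, and 1905 and 1962 in the same order. KRT8 measured 2488 and 2655, 2746 and 2660.1, and 2753 and 2981 FPKM in degron (++), and 1940.4 and 1751, 1732 and 1798, and 2045 and 2118 in degron (-). All 6 degron (++) libraries were above all 6 degron (-) libraries for both genes. At 0 Gy the fold of the mean FPKM was 1.46 for KRT18 and 1.39 for KRT8. The log2 fold changes, on the log2(FPKM + 1) scale used throughout, were 0.54 ± 0.05 (SE) and 0.48 ± 0.06 (limma, adjusted p = 1.57e-05 and 0.0001, n = 2 per group). After quantile normalization the KRT8 difference was 0.15 at 0 Gy (limma, adjusted p = 0.0655) and 0.11 at 4 Gy and 48 h (adjusted p = 0.18), past the threshold in neither.

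KRT7 and KRT19, the pair that accompanies KRT8 and KRT18 in ducts, differed between the populations by very unequal amounts. KRT7 measured 1142 and 1211 FPKM in degron (++) at 0 Gy, 1437 and 1328 at 4 Gy and 30 h, and 1247 and 1338 at 4 Gy and 48 h. In degron (-) it measured 199 and 173, 133 and 144, and 233 and 273. The lowest degron (++) library was thus far above the highest degron (-) library. The fold of the mean FPKM was 6.33 at 0 Gy, 9.99 at 30 h and 5.11 at 48 h with 4 Gy, and the log2 fold change at 0 Gy was 2.66 ± 0.09 (limma, adjusted p = 1.36e-08). KRT19 measured 816 to 951 FPKM with a median of 871 in degron (++) and 667 to 774 with a median of 718 in degron (-). Its groups did not overlap, but the folds were only 1.13 at 0 Gy and, with 4 Gy, 1.35 and 1.17 at 30 and 48 h. The log2 fold changes of 0.17, 0.43 and 0.23 passed the test (limma, adjusted p = 0.0297, 0.000164 and 0.00817). The direction for KRT19 depended on scaling. Quantile normalization gave -0.05, 0.04 and -0.10, and rescaling to TPM, in which every library has the same sum, gave -0.04 at 0 Gy and, with 4 Gy, 0.15 at 30 h, where the call stayed (limma, adjusted p = 0.013), and -0.04 at 48 h. Rescaling without MIR622, chosen after the values were seen, gave 0.05, 0.27 and 0.03, with a call at 30 h.

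KRT13, the type I keratin of noncornified squamous surfaces, showed the largest gap between the populations of the 10 genes. It measured 83.2 and 83.3 FPKM in degron (++) at 0 Gy, 81.3 and 80.7 at 4 Gy and 30 h, and 108 and 112 at 4 Gy and 48 h. In degron (-) it measured 4.95 and 2.83, 1.33 and 2.47, and 6.38 and 8.89. The fold of the mean was 21.4 at 0 Gy, and with 4 Gy it was 42.6 at 30 h and 14.4 at 48 h, and the log2 fold changes were 4.14 ± 0.23, 4.85 ± 0.23 and 3.70 ± 0.23 (SE). KRT4, the usual type II partner of KRT13, lay far below it in every library, at 0.593 to 1.45 FPKM in degron (++) and 0 to 0.079 in degron (-). KRT4 was higher in degron (++) in each condition, by 0.67 ± 0.09 at 0 Gy. It reached 1 FPKM only in degron (++) libraries and so passed the filter through that population. This difference is therefore a description only. The abundant type II chains of the same libraries were KRT8 and KRT7.

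Of the other stratified type I keratins, KRT10 and KRT17 were higher in degron (++) in all 3 conditions. KRT10 measured 16.1 to 18 FPKM in degron (++) and 8.56 to 11.2 in degron (-), with log2 fold changes of 0.69, 0.72 and 0.82 at 0 Gy, at 30 h and at 48 h with 4 Gy (limma, adjusted p at most 9.65e-06). KRT17 measured 1.85 and 2.83 FPKM in degron (++) at 0 Gy, 1.41 and 1.42 at 30 h, and 3.82 and 4.55 at 48 h with 4 Gy. In degron (-) it stayed below 1 FPKM, at 0.12 and 0.125, 0.058 and 0.244, and 0.52 and 0.561. The log2 fold changes of 1.56, 1.07 and 1.75 understate a change of a gene this low, since 1 was added to each value, and the folds of the mean FPKM were 19.1, 9.37 and 7.74. The usual partners of these genes were scarce: KRT5, the partner of KRT15, reached at most 0.271 FPKM, KRT6A and KRT6B at most 0.122, and KRT1 and KRT6C were listed at 0 in all libraries.

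KRT15 did not keep 1 direction. It measured 6.80 to 7.39 FPKM in degron (++) and 5.39 to 6.10 in degron (-) at 0 Gy, a log2 difference of 0.26 ± 0.08 (limma, adjusted p = 0.015). At 4 Gy and 30 h the difference was 0.21 (adjusted p = 0.04), and at 4 Gy and 48 h the ranges overlapped and the difference was -0.04 (adjusted p = 0.686). Rescaling to TPM gave 0.09 at 0 Gy, and with 4 Gy -0.04 at 30 h and -0.28 at 48 h, the last with an adjusted p of 0.0139 (limma). KRT15 and KRT19 were the weakest differences of the 10 also when single libraries were left out. At 0 Gy the KRT15 call was lost without degron (++) replicate 1 (0.21, adjusted p = 0.0926) and without degron (-) replicate 2 (0.19, adjusted p = 0.107). The KRT19 call there was lost without replicate 2 of degron (++) (0.13, adjusted p = 0.158) or of degron (-) (0.12, adjusted p = 0.177), and its call at 4 Gy and 48 h was lost without replicate 2 of either population at that dose and time (0.17 and 0.19, adjusted p = 0.0618 and 0.0549). At 30 h the KRT15 call was lost without replicate 1 of either population at that time (0.14 and 0.15, adjusted p = 0.213 and 0.205) and, just, without either degron (++) library of 48 h and 4 Gy (adjusted p = 0.0501 and 0.05).

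Of the remaining type II genes, KRT81 had a difference close to that of KRT7 and KRT80 one close to that of KRT18. KRT81 measured 102 and 105 FPKM in degron (++) at 0 Gy, 106 and 99.6 at 30 h, and 101 and 104 at 48 h with 4 Gy. In degron (-) it measured 15.9 and 12.7, 10.6 and 10.9, and 15.9 and 22.0. Its log2 fold changes were 2.78, 3.15 and 2.39 (limma, adjusted p at most 3.22e-07). KRT86, the hair keratin with which KRT81 shares many windows, was listed at 0.523 to 1.38 FPKM in degron (++) and 0.317 to 0.603 in degron (-), and KRT83 at up to 0.159. KRT80 measured 28.0 to 35.9 FPKM in degron (++) and 18.5 to 22.6 in degron (-), with log2 fold changes of 0.59, 0.85 and 0.68 (limma, adjusted p at most 8.00e-06).

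**Figure D2:**
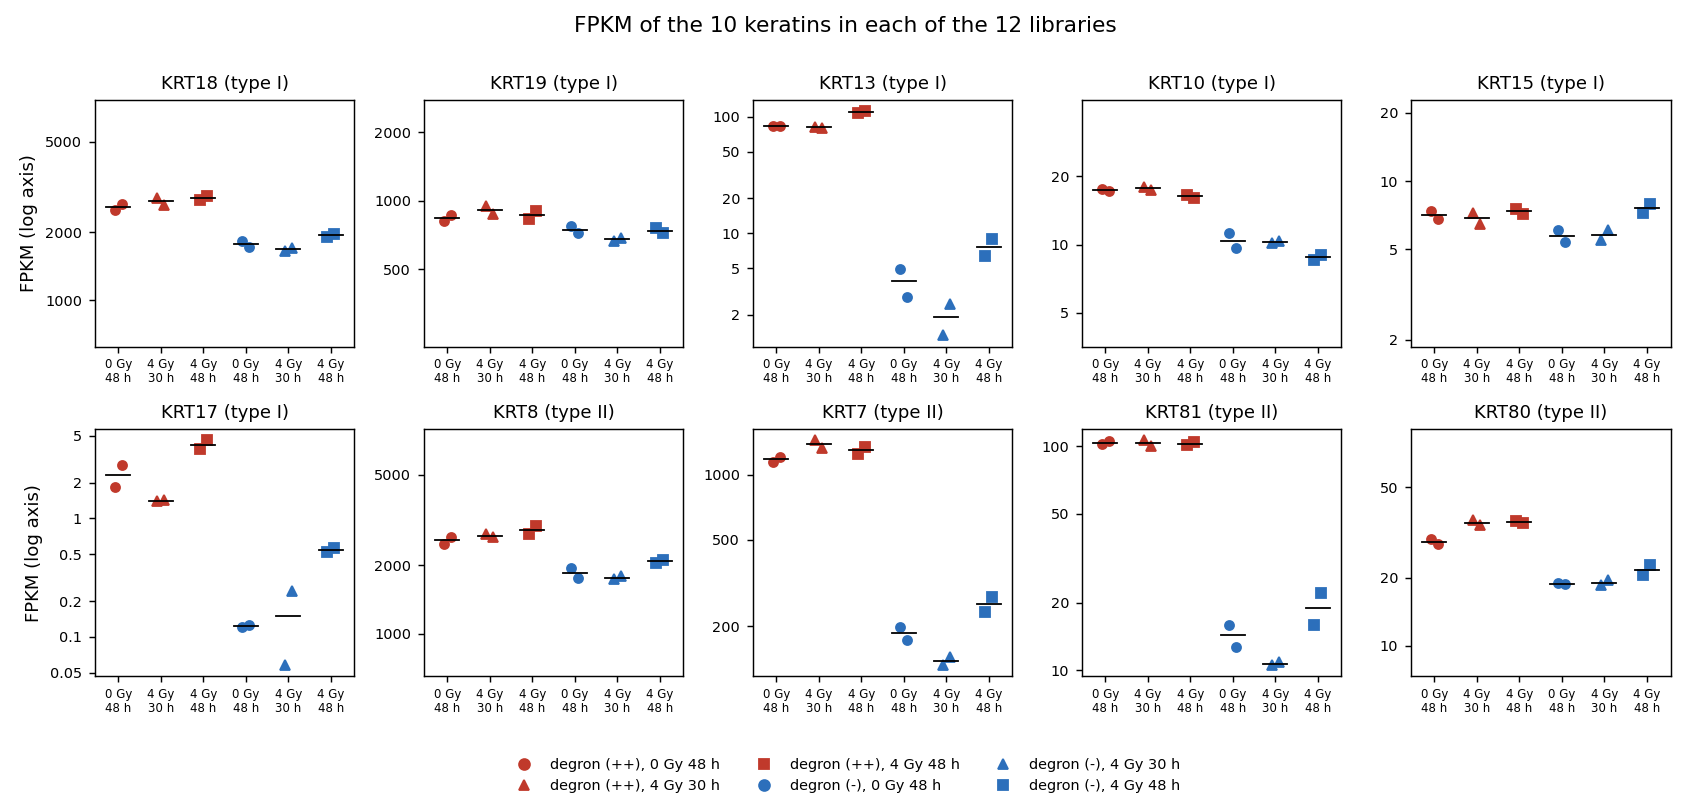
FPKM of each keratin on a log axis, with 1 point per library and a black line at the mean of the 2 libraries of a group. For KRT13, KRT17, KRT7 and KRT81 the degron (++) libraries lie far above the degron (-) libraries, while the KRT15 values of the 4 Gy and 48 h groups overlap.

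Counted over the list, all 10 genes were higher in degron (++) at 0 Gy, against 37.6% of the 12946 genes tested that were higher and 40.2% that were lower. All 10 were higher at 4 Gy and 30 h, where the background was 38.3% higher and 40.8% lower. At 4 Gy and 48 h, 9 were higher and KRT15 was not called, with a background of 37.1% higher and 39.6% lower. Averaged over the 3 conditions, all 10 were higher, against 42.1% higher and 44.6% lower of all genes. Each of these counts includes KRT13, which was picked by its difference, so its call is no support. The same holds for KRT17, which stayed below 1 FPKM in degron (-) and passed the filter only through degron (++). The median log2 fold change of the 10 genes was 0.64 at 0 Gy, 0.78 at 30 h and 0.75 at 48 h with 4 Gy, and that of all genes tested was -0.02, -0.02 and -0.01. Since most genes differed between the populations, in both directions, a single call says little, and the genes here share their libraries and are not independent of each other. Rescaling to TPM shifted the median of all genes to -0.21, -0.27 and -0.25, and at 0 Gy it turned the calls over all genes from 4864 higher and 5198 lower to 3523 higher and 6287 lower. On that scale KRT18 remained at 0.33 and KRT8 at 0.27 at 0 Gy, above the shifted median. In these bulk libraries, fewer cells with a keratin and less RNA of it per cell cannot be told apart.

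**Figure D3:**
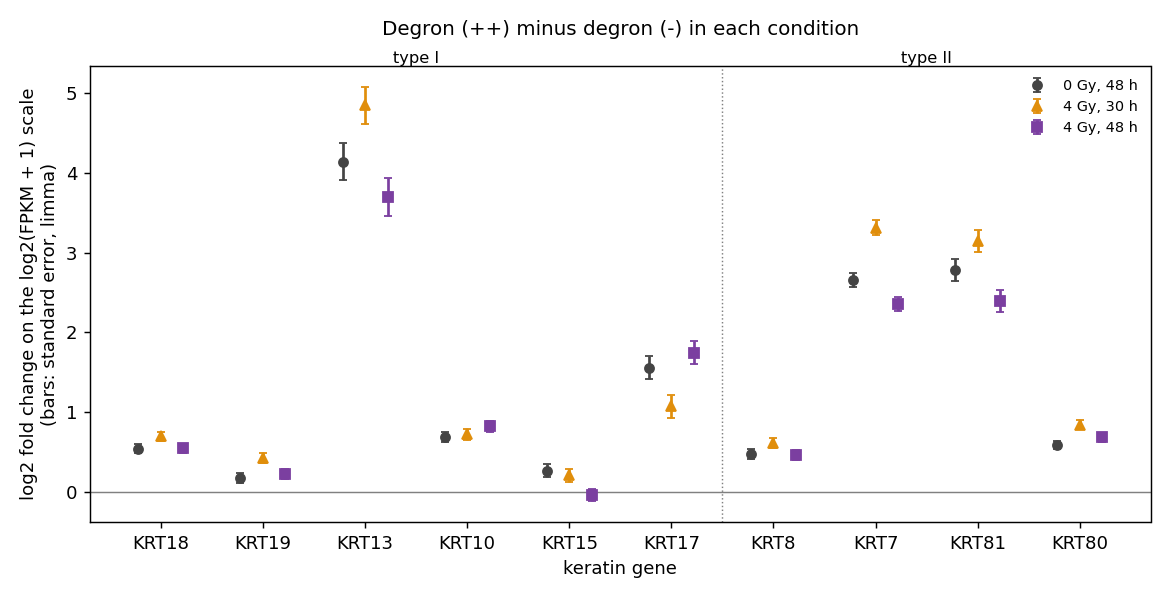
Difference between degron (++) and degron (-) for each keratin as log2 fold change with its standard error (limma), in 3 conditions. KRT13 lies between 3.70 and 4.85, KRT7 and KRT81 between 2.35 and 3.31, and the other 7 below 1.8.

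Ratios between keratins within a library do not change when all values of the library are multiplied by 1 factor, as in rescaling to TPM, and 7 of them were compared, of which KRT13 to KRT19 and KRT81 to KRT8 are within 1 type. KRT8 and KRT18 were nearly equal in level per length in every library, with a KRT8 to KRT18 ratio of 0.973 to 1.03 in degron (++) and 1.02 to 1.08 in degron (-). The ratio was lower in degron (++) in each of the 3 conditions without overlap, by a mean of -0.08 on the log2 scale (exact permutation test within conditions, two-sided, p = 0.00926, adjusted p = 0.0278). Both genes have many pseudogenes, whose part in a difference this small was not tested.

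Ratios that involve KRT7 or KRT81 had wider gaps than that. The KRT7 to KRT19 ratio ranged from 1.40 to 1.52 in degron (++) and from 0.199 to 0.379 in degron (-), a mean log2 difference of 2.50. The KRT7 to KRT18 ratio was 0.452 to 0.509 and 0.0801 to 0.139, a difference of 2.19, and the KRT8 to KRT19 ratio was 2.89 to 3.32 and 2.44 to 2.95, a difference of 0.24. The KRT81 to KRT8 ratio was 0.0349 to 0.0410 and 0.00604 to 0.0104, a difference of 2.34. In each of these 4 the exact permutation test over the 12 libraries gave p = 0.00926, the smallest that its 216 arrangements can give, and an adjusted p of 0.0278 over the 21 tests of ratios. The KRT13 to KRT19 ratio ranged from 0.0854 to 0.130 in degron (++) and from 0.002 to 0.0124 in degron (-).

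Summed over the members, the 4 type II genes exceeded the 6 type I genes in every degron (++) library and fell short of them in every degron (-) library. The ratio of the sums ranged from 1.10 to 1.14 in degron (++) and from 0.796 to 0.90 in degron (-), a mean log2 difference of 0.42 (exact permutation test, p = 0.00926, adjusted p = 0.0278). Without KRT7, a check chosen after the values were seen, the ratio ranged from 0.744 to 0.794 in degron (++) and from 0.726 to 0.799 in degron (-), and the populations overlapped.

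**Figure D4:**
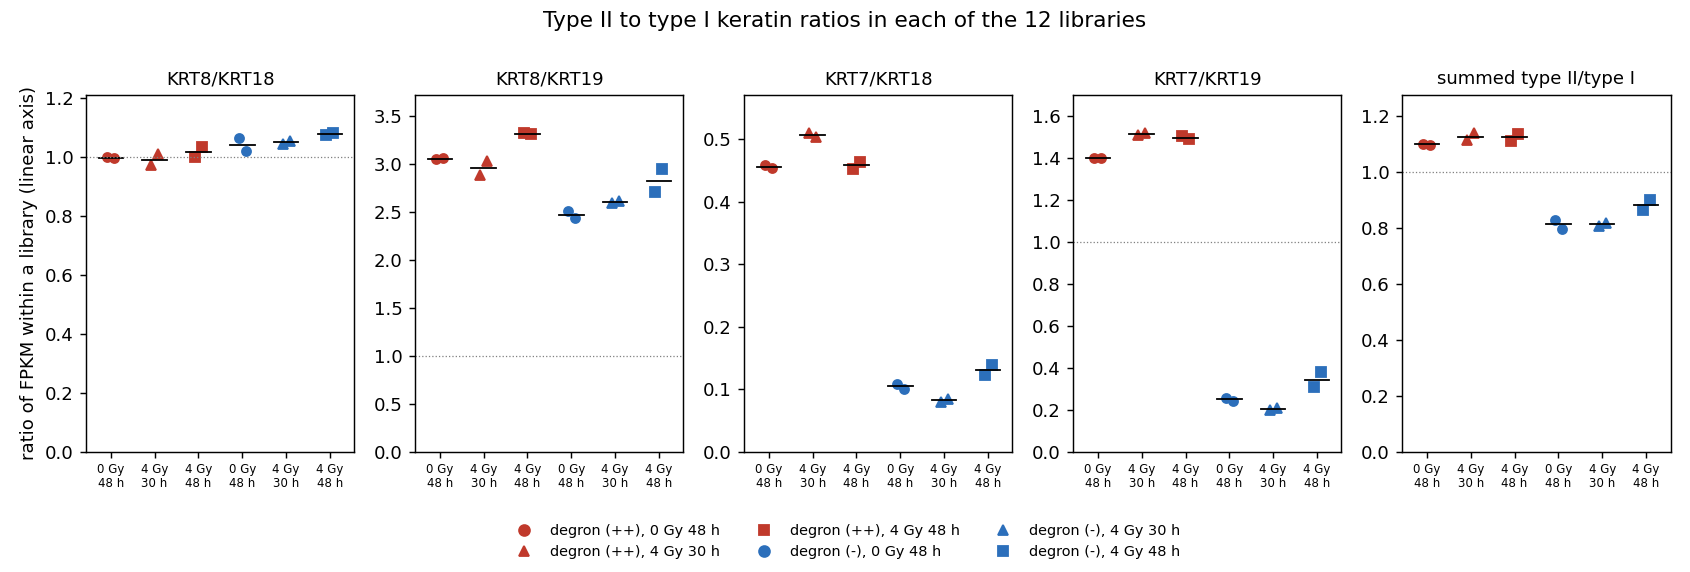
Ratio of the FPKM of a type II to a type I keratin within each library, on linear axes that start at 0, with a black line at the mean of a group and a dotted line at 1. The KRT8 to KRT18 ratio stays between 0.973 and 1.08, while the KRT7 to KRT19 ratio lies at 1.40 to 1.52 in degron (++) and 0.199 to 0.379 in degron (-).

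Irradiation was tested at 48 h, 4 Gy against 0 Gy, within each population. In degron (++), KRT80 alone passed the test, at 35.6 and 35.0 FPKM with 4 Gy against 29.7 and 28.0 at 0 Gy, a log2 fold change of 0.28 ± 0.05 (limma, adjusted p = 0.0441). This was 1 of the 10 genes, against 1.82% of all genes tested that changed and 1.42% that rose. KRT13 was at 108 and 112 FPKM with 4 Gy and 83.2 and 83.3 without, with no overlap, but its change of 0.40 ± 0.23 did not pass (adjusted p = 0.429). That standard error is pooled over all 6 groups. The KRT13 replicates of degron (-), such as 1.33 and 2.47 FPKM at 30 h, lay further apart on the log2 scale. A fit of the compared libraries alone, with few residual degrees of freedom, did not call the KRT13 change either. KRT17, at 3.82 and 4.55 against 1.85 and 2.83, had a change of 0.65 ± 0.14 (adjusted p = 0.0626). KRT4 measured 1.28 and 1.45 FPKM with 4 Gy and 0.652 and 0.593 without. It reached 1 FPKM in no other libraries than these at 4 Gy and 48 h, and so passed the filter through them. Its change of 0.54 is therefore a description only.

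In degron (-), KRT7 and KRT15 rose with dose, 2 of the 10 genes against 4.73% of all genes tested that changed and 3.85% that rose. KRT7 measured 233 and 273 FPKM with 4 Gy and 199 and 173 without, a log2 fold change of 0.44 ± 0.09 (limma, adjusted p = 0.0326). KRT15 measured 7.27 and 7.88 with 4 Gy and 6.10 and 5.39 without, a change of 0.35 ± 0.08 (adjusted p = 0.0493). KRT13 had a larger change, 0.84 ± 0.23, that did not pass (adjusted p = 0.0811). The values at 4 Gy lay above those at 0 Gy without overlap for 8 of the 10 genes in degron (-) and 6 in degron (++), against 27.3% and 24.6% of all genes tested. They lay below for KRT10 in both populations, against 23.3% and 21.9% of all genes. KRT19 overlapped in both.

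These dose calls were near the threshold. The KRT80 call was lost on leaving out any of 10 of the 12 libraries, with an adjusted p of up to 0.166, and the KRT15 call on leaving out any of the 12, with up to 0.241. The KRT7 call was lost without either degron (++) library at 0 Gy (adjusted p = 0.0513 and 0.0514), without degron (-) replicate 2 at 4 Gy and 48 h (0.33, adjusted p = 0.177) and without degron (-) replicate 2 at 0 Gy (0.34, adjusted p = 0.158). Conversely, KRT13 passed in degron (-) without replicate 1 at 0 Gy (1.16, adjusted p = 0.0464) and KRT81 without replicate 1 at 4 Gy and 48 h (0.60, adjusted p = 0.0289).

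The dose effect was compared between the populations in the same model. None of the 10 genes passed, against 0.0772% of all genes tested (10 genes by limma, with 1758 at an unadjusted p under 0.05). Of the 10, 2 (KRT15 with -0.30 and KRT7 with -0.30) had an unadjusted p under 0.05 (0.0285 and 0.0432). The partner ratios could not pass the threshold for dose, because the 36 arrangements of 8 libraries allow no p below 0.0556. Of the 7 ratios, 5 reached that value, among them KRT8 to KRT18 with a mean log2 difference of 0.04 and KRT13 to KRT19 with 0.69 (exact permutation test, adjusted p = 0.0833).

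Between 30 h and 48 h after 4 Gy, 4 of the 10 keratins rose in degron (-), against 7.18% of all genes tested that changed and 6.01% that rose. They were KRT13, KRT7, KRT81 and KRT15. KRT13 rose from 1.33 and 2.47 FPKM at 30 h to 6.38 and 8.89 at 48 h, a fold of the mean of 4.01 and a log2 fold change of 1.59 ± 0.23 (limma, adjusted p = 0.00519). KRT7 rose from 133 and 144 to 233 and 273, by 0.86 ± 0.09 (adjusted p = 0.00116), and KRT81 from 10.6 and 10.9 to 15.9 and 22.0, by 0.75 ± 0.13 (adjusted p = 0.0124). KRT15 rose from 5.51 and 6.07 to 7.27 and 7.88, by 0.34 ± 0.08 (adjusted p = 0.0419). The abundant pair moved less, KRT8 by 0.24 (adjusted p = 0.0601) and KRT18 by 0.20 (adjusted p = 0.0657), and neither passed. Both passed after quantile normalization, with 0.27 each (limma, adjusted p = 0.0483 and 0.0105), after rescaling to TPM (0.20 and 0.16, adjusted p = 0.0258 and 0.0412) and after rescaling without MIR622 (0.27 and 0.23, adjusted p = 0.00783 and 0.0103). KRT17, at 0.058 and 0.244 FPKM at 30 h and 0.52 and 0.561 at 48 h, had a fold of the mean of 3.58 and a log2 change of 0.43 that did not pass (adjusted p = 0.118). At 48 h, 9 genes lay above their 30 h values without overlap, against 28.6% of all genes tested. KRT10 lay below, as did 26.4% of all genes, with -0.21 (adjusted p = 0.0988). The median over the 10 genes was 0.29 and over all genes tested 0.00303.

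Some other genes that were higher in degron (++) rose in the same degron (-) libraries. CDKN2A, CDKN2B and MTAP, neighbours on chromosome 9p21 that earlier results of these data had shown to vary within degron (-), summed to 15.4 to 16.1 FPKM at 30 h and 26.8 to 28.3 at 48 h with 4 Gy, to 20.4 to 24.5 at 0 Gy, and to 129 to 144 in degron (++). Since they were chosen for that variation, their rise with time in degron (-) is given as a description only. It was 0.73 for CDKN2A, 0.80 for CDKN2B and 0.55 for MTAP on the log2 scale. Of the 5 tested cell type markers that are not keratins, SOX9 with -0.13, IVL with 0.67 and COL1A1 with 0.08 did not pass. The 2 that rose, against 6.01% of all genes tested, were EPCAM and the epithelial adhesion protein CDH1. Their changes were 0.64 and 0.79 (limma, adjusted p = 0.00107 and 0.000176). The part of such genes, or of a varying share of cells, in the rise of KRT13, KRT7 and KRT81 was not tested.

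In degron (++), KRT17 alone rose from 30 h to 48 h, 1 of 10 genes against 1.21% of all genes tested that changed and 0.657% that rose. It measured 1.41 and 1.42 FPKM at 30 h and 3.82 and 4.55 at 48 h, a log2 fold change of 1.10 ± 0.14 (limma, adjusted p = 0.0155). KRT13, at 81.3 and 80.7 FPKM at 30 h and 108 and 112 at 48 h, did not overlap but did not pass either, with 0.43 ± 0.23 (adjusted p = 0.414). Its standard error is again pooled over all 6 groups, with the wider log2 spread of degron (-). KRT7 had -0.10 ± 0.09 and KRT81 -0.000956 ± 0.134, both with overlapping values. Of the 10 genes, 3 lay above their 30 h values without overlap and 1 below, against 21.4% and 22.9% of all genes tested, and 6 overlapped.

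**Figure D5:**
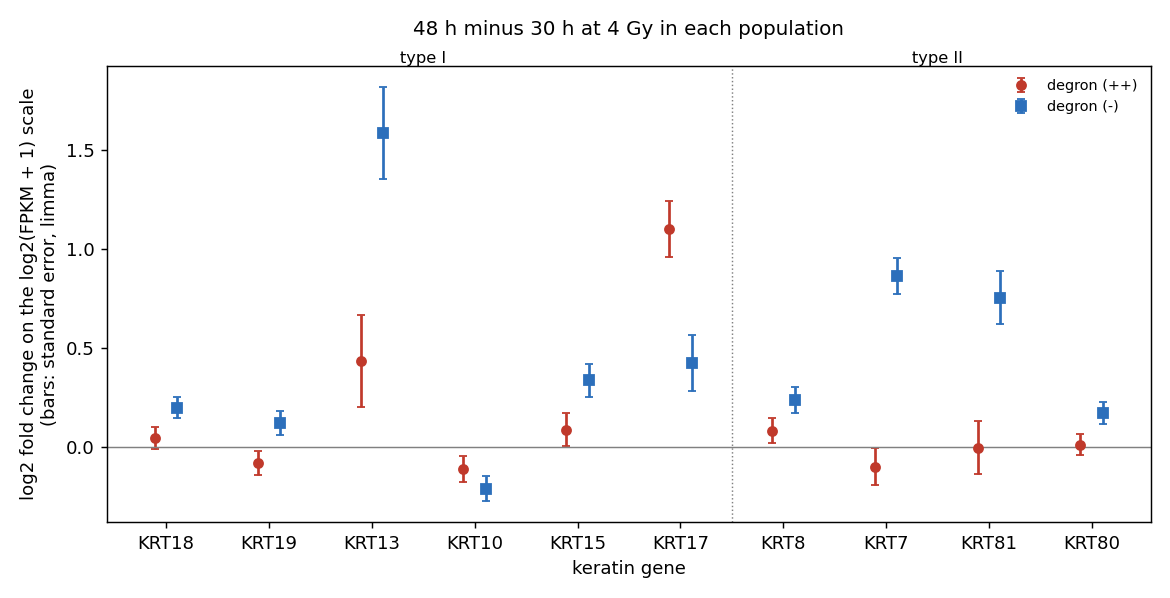
Change from 30 h to 48 h at 4 Gy as log2 fold change with its standard error (limma) for each keratin in each population. In degron (-), KRT13 lies at 1.59, KRT7 at 0.86 and KRT81 at 0.75, while in degron (++) KRT17 lies at 1.10 and KRT7 and KRT81 at -0.10 and 0.

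The change with time differed between the populations for KRT7, 1 of 10 genes against 3.23% of all genes tested. The difference, degron (++) minus degron (-), was -0.96 ± 0.13 on the log2 scale (limma, adjusted p = 0.0109), in that KRT7 rose in degron (-) and had a small negative value in degron (++). KRT81 had -0.76 ± 0.19 (adjusted p = 0.0735), KRT13 -1.15 ± 0.33 (adjusted p = 0.11) and KRT17 0.67 ± 0.20 (adjusted p = 0.122), none past the threshold. A different change of KRT13 or KRT17 in the 2 populations is therefore not shown. The KRT17 values depended on the pseudocount. With 0.1 in place of 1, its change with time was 1.50 in degron (++) (limma, adjusted p = 0.0876) and 1.46 in degron (-) (adjusted p = 0.0368), with a difference of 0.04 (adjusted p = 0.98), and its change with dose in degron (-) was 1.53, which passed (adjusted p = 0.0423). For the ratios at 4 Gy, 48 h against 30 h, the smallest possible p was again 0.0556. It was reached by KRT13 to KRT19, with a mean log2 difference of 1.23, and by KRT8 to KRT19, with 0.14 (exact permutation test, adjusted p = 0.0833). The KRT7 to KRT19 ratio rose in degron (-), from 0.199 and 0.209 to 0.308 and 0.379, and was lower at 48 h in degron (++), from 1.51 and 1.52 to 1.49 and 1.50.

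Leaving out 1 library changed some of these calls. Without degron (-) replicate 2 at 4 Gy and 48 h, the rise of KRT13 in degron (-) was 1.37 (limma, adjusted p = 0.052) and that of KRT81 was 0.53 (adjusted p = 0.0504). The KRT81 call was also lost without either 30 h library of degron (-) (0.74 and 0.77, adjusted p = 0.0806 and 0.0578). The KRT15 call was lost in 10 of the 12 omissions, with an adjusted p of up to 0.247, and the KRT7 rise in none. KRT17 in degron (++) lost its call without any of the 4 libraries compared, with an adjusted p of up to 0.114. The KRT7 difference between populations was -0.90 without degron (++) replicate 1 at 30 h (adjusted p = 0.0519). KRT81 passed that test without degron (-) replicate 1 at 4 Gy and 48 h (-0.98, adjusted p = 0.0129). Without either degron (-) library at 0 Gy, KRT8 and KRT10 passed for time in degron (-) (0.24 and -0.21, adjusted p at most 0.0472).

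Proteins that anchor or organise keratin filaments were counted as a group of 12, of which 11 were tested and PKP1, a plakophilin of desmosomes, was too low. In each condition 10 were higher in degron (++) and 1, the linker DST, was lower, against 37.1% to 38.3% and 39.6% to 40.8% of all genes tested, with a median at 0 Gy of 1.0 against -0.02 for all genes. The widest differences at 0 Gy were those of the desmosomal PKP2 with 2.41 and the periplakin gene PPL with 2.39, and the lowest those of DST with -1.12 and TCHP with 0.27. PKP2 measured 31.5 to 34.1 FPKM in degron (++) and 3.47 to 7.06 in degron (-). For time in degron (-), 4 of the 11 rose, against 6.01% of all genes, with a median of 0.13. These were PKP2 with 0.68, PPL with 0.41, the desmoplakin gene DSP with 0.63 and PKP3 with 0.29, named after their values were seen. The change with time differed between the populations for 2 of the 11, against 3.23% of all genes. These were DSP and PKP2, with -0.66 and -0.64 (limma, adjusted p = 0.00453 and 0.0339). In degron (++) JUP alone rose with time (0.25, limma, adjusted p = 0.0459), 1 of the 11 against 0.657% of all genes. DSP, JUP and PPL rose with dose in degron (-), 3 of the 11 against 3.85% of all genes. With dose in degron (++) none of the 11 passed (limma), against 1.82% of all genes tested. Of the 11, 3 had an unadjusted p under 0.05, against 2282 of all 12946 genes tested.

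Transcription and splicing regulators of epithelia were counted as a second group of 12, of which 10 were tested, with TP63 and GRHL3 too low. The untested GRHL3 was lower in degron (++), at 0 to 0.068 FPKM against 0.477 to 0.693 in degron (-). At 0 Gy, 9 were higher in degron (++), against 37.6% of all genes, with a median of 1.80. The widest were ELF3 with 3.41 and KLF5 with 2.66, and the lowest GRHL1 with -0.26, which did not pass (limma, adjusted p = 0.0759), and the splicing regulator ESRP2 with 0.87. GRHL1 was lower at 30 h (-0.41, adjusted p = 0.0118) and averaged over the 3 conditions (-0.26, adjusted p = 0.00659). EHF, among the 9 higher genes, stayed below 1 FPKM in degron (-) and passed the filter only through degron (++), so its call is no support. In degron (-), 8 of the 10 rose from 30 h to 48 h, against 6.01% of all genes, with a median of 0.71, among them ELF3 by 1.35 and KLF5 by 0.76 (limma, adjusted p = 0.00035 and 0.00311), and 4 rose with dose, against 3.85%. In degron (++) none of the 10 passed with dose or with time (limma), against 1.82% and 1.21% of all genes tested. An unadjusted p under 0.05 was found for 2 and 1 of them, against 2282 and 2050 of all 12946 genes tested. The change with time differed between the populations for 5 of the 10, against 3.23% of all genes.

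Over the 12 libraries, the member whose log2 pattern was most like KRT13 was KRT7 (Pearson r = 0.995), and KRT7 itself was most like KRT81 (0.998). KRT8 and KRT18 were most like each other (0.993), and KRT15 had the weakest best match, KRT8 with 0.683. Among genes that are not keratins, DUSP10, AVPI1, NR2F2, MSLN and FOLR1 were most like KRT13, with r of 0.998. MSLN, the surface protein mesothelin, measured 25.4 to 28.1 FPKM in degron (++) and 4.65 to 8.97 in degron (-). FOLR1, a folate receptor, measured 67.5 to 104 and 4.07 to 12.7. These correlations describe 12 libraries that share 2 populations, and most of each comes from the gap between them.

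The other 45 keratin genes were mostly listed at 0 or at low values. Of these, 21 were listed at 0 in all libraries, 22 were above 0 but too low to be tested, and 2, KRT4 and KRT16, were tested. KRT16, a type I keratin similar to KRT17, measured 0.653 to 1.76 FPKM in degron (++) and 0.141 to 0.273 in degron (-). Its difference at 0 Gy was 0.60 ± 0.17. Like KRT4, it passed the filter only through degron (++) libraries, so this difference is a description only. KRT20, an intestinal type I keratin, reached at most 0.104 FPKM, and KRT14, the basal squamous type I keratin, at most 0.059.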

How the data were processed

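RNA from 12 libraries of PANC-1 degron (++) and degron (-) cells was sequenced from stranded mRNA libraries. The authors deposited FPKM per gene symbol and library, and per the submitters' processing notes TopHat2 2.1.1, Bowtie2 2.2.8, SAMtools 0.1.18, Cuffdiff 2.2.1 and hg19 were used; the annotation is not given in the sources used here. No counts were used. Genes that reached 1 FPKM in 2 libraries or more (12946 of 23284) were fitted with limma 3.58.1 (R 4.3.3) on log2(FPKM + 1), with 6 group means, an intensity trend and Benjamini-Hochberg adjustment over all genes, and called at an adjusted p under 0.05. Genes listed at 0 were not taken as absent. Partner ratios were compared by exact two-sided permutation tests within conditions or populations, adjusted over 21 tests. The fits were tested on simulated data.

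Text names every member, the usual partners and near copies of members, other keratins past the filter, the ends of the linker and regulator lists, and the 5 genes most like KRT13. Members and lists were chosen with earlier results of these data known. Alternatives were another pseudocount (0.1), no filter or a filter at 5, quantile normalization, rescaling to TPM (a sum of 1000000), no trend, a replicate block, a fit of the compared libraries alone, 1 added to ratios and omission of each library. Rescaling without MIR622 and the type ratio without KRT7 were chosen after seeing the data. Sequences came from GENCODE transcripts on GRCh38, and proteins were not used here. Comparisons used Python 3.11.15 and scipy 1.17.1.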

Additional observations from a re-analysis of the deposited data

Results flagged for a closer look

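The change of KRT7 from 30 h to 48 h after 4 Gy differed between the populations by a test of the difference itself, with -0.96 on the log2 scale for degron (++) minus degron (-) (limma, adjusted p = 0.0109). KRT7 rose in degron (-) by 0.86 and had -0.10 in degron (++), where the values of both times overlapped.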

How the results depend on the processing

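Differences between the populations were the most stable. Under the alternatives 8 to 10 of the 10 genes were called at 0 Gy and 7 to 10 in any condition, and where tested KRT13, KRT17, KRT10, KRT18, KRT7, KRT80 and KRT81 lost no population call. These are calls in either direction. They include KRT13, which was picked by its difference, and KRT17, which passed the filter only through degron (++). The population calls of KRT13 and KRT17 are a description only. The direction reversed for KRT19 under quantile normalization (-0.0500 at 0 Gy, -0.10 at 4 Gy and 48 h, -0.0356 averaged) and under rescaling to TPM (-0.0372 at 0 Gy, and with 4 Gy -0.0362 at 48 h), and for KRT15 under TPM (-0.0371 at 30 h and -0.0763 averaged). At 4 Gy and 48 h, KRT15 was called lower in degron (++) under TPM (-0.28, limma, adjusted p = 0.0139). It was also called lower there under TPM without MIR622 (-0.22, limma, adjusted p = 0.047). In 36 of 2080 alternative values a difference that was called in neither setting changed sign.

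Counts for dose and time were not stable. The KRT80 call for dose in degron (++) fell to 0 with no filter, quantile normalization, TPM with or without MIR622, no trend, the replicate block and the compared libraries alone. For dose in degron (-), 2 genes became 0 with no filter and with the compared libraries alone, and 1 with quantile normalization, TPM with or without MIR622, no trend and the block. For time in degron (++) the 1 call became 0 with a pseudocount of 0.1, a filter at 5 and the compared libraries alone. For time in degron (-), 4 calls became 7 with TPM without MIR622 and 0 with the compared libraries alone, a fit with few residual degrees of freedom. Omitting single libraries gave 0 to 1 for dose and 0 to 1 for time in degron (++), 0 to 2 for dose and 1 to 6 for time in degron (-), and 0 to 2 for the difference of time between populations. The averaged comparison uses all libraries and had no fit of compared libraries alone.

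Replicate numbers did not pair the libraries: over 15 pairs of groups the correlation of deviations was -0.0382 to 0.122, above 0.1 in 2. With the replicate block as sign flips of pairs, the population ratios kept their values. They were -0.0770 for KRT8 to KRT18, 2.50 for KRT7 to KRT19 and 0.24 for KRT8 to KRT19. KRT7 to KRT18 had 2.19, type II to type I 0.42 and KRT81 to KRT8 2.34. The adjusted p was 0.0938 for each of these, the smallest the flips allow (exact permutation test). KRT13 to KRT19 kept 4.33, given as a description only. The KRT8 to KRT18 ratio was -0.10 under quantile normalization (adjusted p = 0.0556) and -0.0876 to -0.0664 on omitting a library, where the call was lost without either degron (++) library at 0 Gy (adjusted p = 0.0556). Except where a setting uses fewer genes or libraries, the cause of these changes was not tested. Absolute depth is unknown, which limits KRT17, KRT4 and KRT16 most, since their values lie near or below 1 FPKM.

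Counts over all genes moved with the same choices. With the compared libraries alone they became 17 from 236 for dose in degron (++), 8 from 612 for dose in degron (-), 12 from 156 and 7 from 930 for time, and 128 from 418 for the difference of time between populations. Under TPM these 5 counts were 57, 341, 40, 611 and 225. Without the trend the 236 became 128 and the 156 became 78, and with the block 125 and 88. Quantile normalization gave 149 for dose in degron (++), and TPM without MIR622 gave 55 there and 56 for time in degron (++). No filter gave 273 for the difference of time. Leaving out 1 library moved them most: the lowest counts were 1 for dose in degron (++) without its 0 Gy replicate 1 (and 7 without its 4 Gy and 48 h replicate 2), 115 for dose and 281 for time in degron (-) without its 4 Gy and 48 h replicate 2, 15 for time in degron (++) without its 30 h replicate 2, and 67 for the difference of time without degron (++) 30 h replicate 1. The 10 genes whose dose effect differed between populations became 0 without either degron (++) library at 0 Gy, 2 with the block and 35 after quantile normalization. The shares of all genes set beside the keratins move with these counts.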
